A study of Mus musculus with 2 samples.

Results

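Etv1, Etv4 and Etv5 are the PEA3 subfamily of ETS transcription factors. Their rows were found by symbol alone, and all 3 were among the 33696 genes counted in both libraries (Etv1, ENSMUSG00000004151; Etv4, ENSMUSG00000017724; Etv5, ENSMUSG00000013089). The data are single-nucleus RNA-seq of mouse hippocampus at postnatal day 19, counted as unique molecular identifiers (UMIs), each the tag of 1 captured RNA molecule.

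The control library came from Cic flox/flox mice and the other from their Emx1-Cre; Cic flox/flox littermates. Both groups therefore carry the floxed allele of Cic, the gene of the transcriptional repressor Capicua, and they differ by the Cre recombinase expressed from Emx1, a gene active in dorsal telencephalic progenitors. Excitatory neurons and astrocytes of the hippocampus, and many of its oligodendrocyte lineage cells, descend from those progenitors, whereas interneurons, microglia and vessel cells do not. Tissue of 3 mice (2 males and 1 female, 1 hippocampus apiece) was pooled for each library, so animals of one genotype are not separate samples. With 1 library per genotype, library and genotype cannot be told apart, no test is possible, and every interval below is a 95% interval of counting error alone.

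PEA3 factors bind the ETS core sequence and act downstream of receptor tyrosine kinases: active ERK signalling raises their transcription, and the E3 ligase adaptor COP1 marks the proteins for degradation. Capicua sits on the same axis from the other side. It binds octamers in the regulatory regions of PEA3 genes and holds them down until ERK phosphorylates it, and loss of Capicua or fusion of it to an activator is known to raise Etv1, Etv4 and Etv5. In the developing nervous system Etv1 marks subsets of projection neurons and sensory afferents, Etv4 and Etv5 are targets of FGF signalling in progenitors and glia, and Etv5 has a known part in the formation of glia.

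The windows from 250 bases before to 50 bases after annotated start sites are shown because the octamers are the sequence through which Capicua acts. The RefSeq promoter table (GRCm38.p6, a build other than the mm39 the libraries were counted on) held 2 windows for Etv1 and 2 for Etv5. It held none for Etv4, whose promoter was therefore not searched. In the 3 lines printed, capitals mark TGAATG, the first 6 bases of the octamers TGAATGAA and TGAATGGA, on either strand. The first is Etv5 at chr16:22438319-22438618 (minus strand), the next Etv5 at chr16:22439521-22439820 (minus strand), and the last Etv1 at chr12:38779832-38780131 (plus strand), all written 5′ to 3′.
Etv5 downstream start: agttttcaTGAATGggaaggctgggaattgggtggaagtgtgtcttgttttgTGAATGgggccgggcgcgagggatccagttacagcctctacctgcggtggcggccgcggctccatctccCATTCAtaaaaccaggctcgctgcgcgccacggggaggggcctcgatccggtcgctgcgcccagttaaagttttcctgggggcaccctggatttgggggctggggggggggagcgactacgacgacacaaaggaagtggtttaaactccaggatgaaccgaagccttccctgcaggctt
Etv5 upstream start: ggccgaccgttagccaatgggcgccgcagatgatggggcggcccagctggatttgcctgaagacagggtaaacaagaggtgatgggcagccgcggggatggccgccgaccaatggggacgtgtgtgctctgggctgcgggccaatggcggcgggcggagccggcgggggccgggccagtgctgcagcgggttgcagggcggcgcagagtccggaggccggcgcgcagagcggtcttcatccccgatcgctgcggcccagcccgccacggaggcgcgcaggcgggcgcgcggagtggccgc
Etv1 upstream start: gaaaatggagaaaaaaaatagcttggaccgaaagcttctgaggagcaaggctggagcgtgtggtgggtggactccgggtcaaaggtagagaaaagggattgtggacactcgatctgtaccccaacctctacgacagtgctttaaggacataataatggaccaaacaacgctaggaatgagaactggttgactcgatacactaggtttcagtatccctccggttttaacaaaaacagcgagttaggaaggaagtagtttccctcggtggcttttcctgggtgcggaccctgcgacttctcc
None of the 4 windows held a full Capicua octamer (TGAATGAA, TGAATGGA, TCAATGAA or TCAATGGA, both strands), which 3.84% of 32851 windows of the same length held. The 6 bases TGAATG, with which the first and second of these octamers begin but not those with TCAATG, were searched after the sequences had been seen. They occurred 3 times in the window of the downstream Etv5 start and in none of the other 3. Each of those 3 matches reads TGAATGGG with the bases that follow it. At least 1 TGAATG was found in 12.7% of all windows and 3 or more in 0.170%. The ETS core GGAA occurred 6 times at the downstream Etv5 start, never at the upstream one, 5 times at the upstream Etv1 start and 1 time at the downstream one (chr12:38783461-38783760). It was present in 96.0% of all windows and overlapped none of the TGAATG matches. These matches describe letters in short windows and were not tied to binding.

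The control library held 25907 nuclei barcodes with 314453640 UMIs and the library labelled knockout 23207 with 252995761, and 175 barcodes occurred in both. After removal of shallow nuclei and called doublets, 21865 and 20531 nuclei remained, with medians of 9790 and 8766 UMIs. Nuclei were clustered and each cluster was compared with marker lists. In all, 15 named classes held at least 100 nuclei in each library. They are called "-like" because the names were rebuilt from markers, and all of the listed markers were detected in each. The summed markers of 12 classes were highest in the class they name in both libraries. The exceptions were CA1 (960 and 837 CPM, a gene's share of all UMIs of the class in ppm, beside 1794 and 1565 in the highest other class), Lhx6 interneuron (4780 and 4765 beside 5390 and 4939) and, in the library labelled knockout, dentate granule (883 beside 898). The summed dentate granule markers stood at 1462 CPM in that class of the control and 883 CPM in the other library; the part of this difference in the results below was not tested. Clusters without a name held 11.7% and 13.6% of nuclei. Cic did not lie lower beyond counting error in the second library in any named class. Its log2 ratio was lowest in Adarb2 interneuron-like (−0.11, −0.53 to 0.30) and microglia-like nuclei (−0.05, −0.54 to 0.43), the only ones below 0. Its sum over dentate granule-like nuclei was 512 UMIs in the control (9.12 CPM) and 513 in the other (12.6 CPM), a log2 ratio of 0.47 (0.29 to 0.64). In CA1-like nuclei it had 209 and 232 UMIs, a log2 ratio of 0.87, and in the oligodendrocyte precursor-like class 75 and 77 UMIs, 0.09. A count per gene does not separate transcripts with and without floxed exons, so these values check nothing about the deletion, and the second library is called by its label throughout.

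In the control, the 3 genes had 3 different baselines over the 15 named classes, to which the orders given here are limited. Etv4 was highest in some of the glial and progenitor classes. It reached 124 CPM (115 to 134) in oligodendrocyte precursor-like nuclei, 84.8 in astrocyte-like, 44.5 in radial glia-like and 36.7 in cycling progenitor-like nuclei. The intervals of the last 2 overlapped. The cycling class joined 2 unlike clusters, described with the granule lineage below. Every other class lay between 0 and 4.17 CPM, the microglia-like, committed oligodendrocyte precursor-like and oligodendrocyte-like classes among them. In 11 of the 15 classes under 5% of nuclei had an Etv4 UMI. No Etv4 UMI was found in 177 Cajal-Retzius-like nuclei, where 3 UMIs over the class, the limit set for a count of 0, would be 2.82 CPM.

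Etv5 was present in the same glial and progenitor classes and in addition in several neuron classes. Its order in the control ran from astrocyte-like (118 CPM) through oligodendrocyte precursor-like (75.1), subicular or cortical excitatory-like (61.1), microglia-like (46.8), radial glia-like (42.6) and cycling progenitor-like (31.6) to the interneuron classes (28.6 and 28.2), CA1-like (24.1) and CA3-like nuclei (12.4). Outside this order, the cluster without a name that had Fn1 among its leading genes stood at 139 CPM (133 to 145). From microglia-like down to CA1-like nuclei each class overlapped the next in its interval. Below 5 CPM lay Cajal-Retzius-like (4.71), immature dentate granule-like (2.29), committed oligodendrocyte precursor-like (2.07), dentate granule-like (1.55) and oligodendrocyte-like nuclei (1.28), again with overlapping neighbours.

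Etv1 had at least 8.08 CPM in every named class of the control. The lowest level, in immature dentate granule-like nuclei, was below its free RNA limit, described below. Among these it was highest in oligodendrocyte precursor-like nuclei (214 CPM, 201 to 227), followed by subicular or cortical excitatory-like nuclei at 116. Clusters without a name lie outside this order. The one with Fn1 among its leading genes stood at 364 CPM (354 to 374) and the one led by Tnni3k at 222 (216 to 229). The best marker list of the Tnni3k cluster was that of CA1, so the CA1-like values need not cover all CA1 nuclei. Microglia-like (94.5), cycling progenitor-like (81.2) and CA1-like nuclei (80.2) each overlapped the next, and CA3-like nuclei stood at 59.1. Astrocyte-like (43.0) and radial glia-like (41.4) nuclei did not differ beyond their intervals, nor did dentate granule-like (29.4) and oligodendrocyte-like (25.4) nuclei. Oligodendrocyte-like nuclei and the lowest 5, from Cajal-Retzius-like (15.1) to immature dentate granule-like nuclei (8.08), each overlapped the next. Levels of different genes are not compared here, since UMIs per gene also depend on how well each transcript is captured.

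**Figure D1:**
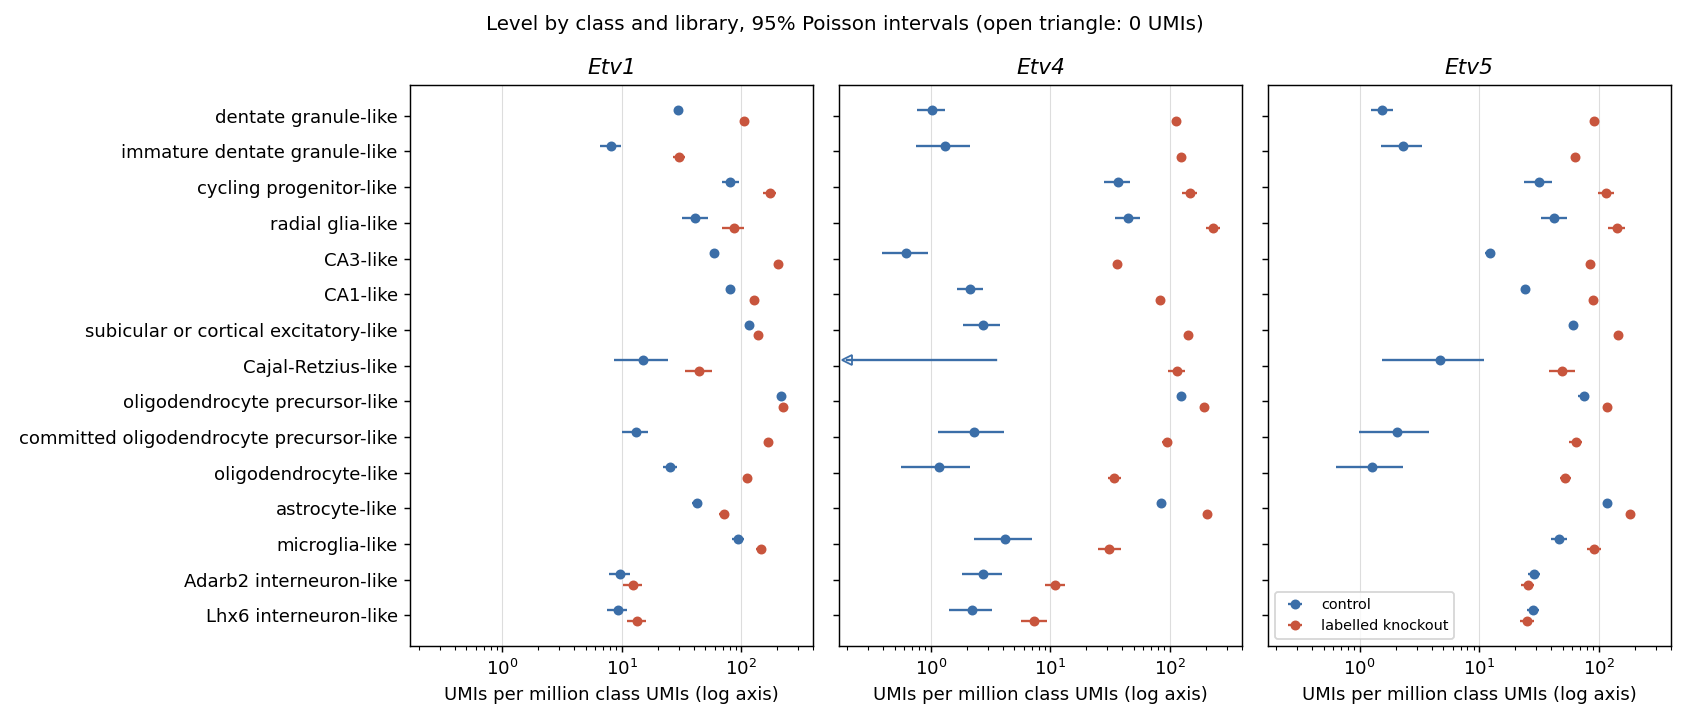
Level in CPM (log axis) of Etv1, Etv4 and Etv5 in 15 classes, control in blue and the library labelled knockout in red, with 95% Poisson intervals. Etv4 in the control exceeded 5 CPM in 4 glial and progenitor classes, and in the other library it was at or above 31.2 CPM in 13 classes, all but the 2 interneuron classes.

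By log2 ratio, Etv4 had the widest separation between the libraries in most named classes. Etv5 lay above it, with overlapping intervals, in oligodendrocyte-like (5.30 against 4.82) and oligodendrocyte precursor-like nuclei (0.66 against 0.63). The 4582 dentate granule-like nuclei of the control had 57 Etv4 UMIs (1.02 CPM). The 3659 of the library labelled knockout had 4583 (112 CPM). The log2 ratio was 6.78 (6.42 to 7.19). Immature dentate granule-like nuclei, the young neurons of the same lineage, went from 16 UMIs (1.31 CPM) to 1285 (124 CPM), a log2 ratio of 6.53 (5.86 to 7.38). In both granule classes the gene lay near 1 CPM in one library and above 100 in the other.

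The pyramidal classes gave a like picture. CA3-like nuclei had 21 Etv4 UMIs in the control (0.623 CPM) and 1007 in the other library (36.0 CPM), a log2 ratio of 5.82 (5.23 to 6.55). CA1-like nuclei had 67 (2.13 CPM) and 1570 (82.2 CPM), 5.26 (4.92 to 5.64). Subicular or cortical excitatory-like nuclei had 33 (2.72 CPM) and 1641 (142 CPM), 5.68 (5.21 to 6.25). The level reached in CA3-like nuclei was the lowest of the 5 excitatory classes named so far, with an interval below theirs. Cajal-Retzius-like nuclei, transient Reln-expressing neurons of the marginal zone, had 0 UMIs and 156 UMIs (114 CPM), at least 40.4-fold higher when the control is set to 3 UMIs for the class.

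Glia with a high control level showed smaller ratios. Astrocyte-like nuclei went from 84.8 to 203 CPM, a log2 ratio of 1.26 (1.14 to 1.39), and oligodendrocyte precursor-like nuclei from 124 to 192 CPM, 0.63 (0.48 to 0.77). Radial glia-like nuclei went from 44.5 to 231 CPM, 2.37 (1.99 to 2.78). The cycling class went from 36.7 to 147 CPM, 1.99 (1.59 to 2.42), a value pooled over a cluster at 6.30 and 140 CPM and one at 87.7 and 155 CPM. Over the 15 classes the Etv4 level had a median of 2.28 CPM in the control (0 to 124) and 112 CPM in the other library (7.31 to 231).

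Among neurons, Etv5 was farthest apart in the granule lineage. Dentate granule-like nuclei had 87 UMIs (1.55 CPM) and 3700 UMIs (90.8 CPM), a log2 ratio of 5.86 (5.57 to 6.20). Immature dentate granule-like nuclei had 28 (2.29 CPM) and 656 (63.4 CPM), 4.77 (4.25 to 5.39). In pyramidal classes, where Etv5 was already present in the control, the ratios were smaller: 2.78 (2.63 to 2.94) in CA3-like nuclei, from 12.4 to 85.4 CPM, 1.89 (1.77 to 2.02) in CA1-like nuclei, from 24.1 to 89.6 CPM, and 1.26 (1.14 to 1.39) in the subicular or cortical excitatory-like class, from 61.1 to 147 CPM. Dentate granule-like, CA1-like and CA3-like nuclei, whose control intervals were apart, overlapped one another in the library labelled knockout. Cajal-Retzius-like nuclei had 5 and 68 Etv5 UMIs, a log2 ratio of 3.27 (2.11 to 5.07).

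Etv1 differed less. Dentate granule-like nuclei had 1651 UMIs in the control (29.4 CPM) and 4316 in the other library (106 CPM), a log2 ratio of 1.85 (1.77 to 1.93). CA3-like nuclei had 1989 (59.1 CPM) and 5692 (204 CPM), 1.79 (1.71 to 1.86). Immature dentate granule-like nuclei had 99 (8.08 CPM) and 313 (30.2 CPM), 1.90 (1.57 to 2.24). Both of these immature counts were below their free RNA limits of 239 and 365 UMIs, described below. CA1-like nuclei had 80.2 and 129 CPM, 0.68 (0.60 to 0.77), and the subicular or cortical excitatory-like class 116 and 139 CPM, 0.27 (0.16 to 0.37). Oligodendrocyte precursor-like nuclei were the named class where Etv1 was highest in the control. The values there were 214 and 225 CPM and the log2 ratio was 0.07 (−0.05 to 0.19).

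A gene was counted as higher in a class when the library with more of it had at least 50 UMIs and 10 CPM and the ratio was at least 2-fold. By this rule Etv4 was higher in the library labelled knockout in 13 of 15 classes, Etv5 in 10 and Etv1 in 8. None was lower in any class. The Etv1 classes include immature dentate granule-like nuclei, where its UMIs were below the free RNA limit in both libraries, as described below. Among all genes tested, the share higher by the same rule was 2.24% in the dentate granule-like class, 0.294% in the immature one, 3.04% for CA1-like, 1.41% for CA3-like and 0.914% for subicular or cortical excitatory-like nuclei. It was 2.94% in Cajal-Retzius-like, 0.303% in cycling progenitor-like, 0.413% in radial glia-like, 0.138% in astrocyte-like and 0.149% in microglia-like nuclei. Along the oligodendrocyte lineage it was 0.192% in precursor-like, 0.957% in committed precursor-like and 2.49% in oligodendrocyte-like nuclei, and in interneurons 0.125% (Adarb2) and 0.0114% (Lhx6). The share of all genes lower by the rule was 1.04% in the dentate granule-like class, 0.042% in the immature one, 1.08% for CA1-like, 0.339% for CA3-like and 0.223% for subicular or cortical excitatory-like nuclei. It was 0.126% for Cajal-Retzius-like, 0.224% for cycling progenitor-like, 0.467% for radial glia-like, 0.117% for astrocyte-like and 0.619% for microglia-like nuclei, 0.0426%, 0.248% and 1.17% along the oligodendrocyte lineage, and 0.125% (Adarb2) and 0.0229% (Lhx6) in interneurons. Ranked by ratio, Etv4 came first among the genes that met the minimum in CA3-like (8248 genes), immature dentate granule-like (9520), Cajal-Retzius-like (4761), radial glia-like (5573), subicular or cortical excitatory-like (8535), microglia-like (8720) and Adarb2 interneuron-like nuclei (8792). Except in radial glia-like nuclei, Etv4 met the minimum in these classes only in the library labelled knockout. In Cajal-Retzius-like nuclei its control count was 0, so the size of the ratio ranked depends on the 0.5 UMI added. Of its 108 UMIs in Adarb2 interneuron-like nuclei of that library, 83.8 could be free RNA, as described below. Etv4 ranked 2 and Etv5 ranked 4 of 8427 in dentate granule-like nuclei, where Etv1 ranked 55. In committed oligodendrocyte precursor-like nuclei Etv4 ranked 2, Etv5 4 and Etv1 5 of 8460, and in the cycling class 4, 5 and 11 of 6262. Etv4 ranked 3 in both astrocyte-like and CA1-like nuclei, and in oligodendrocyte-like nuclei Etv5 ranked 8 and Etv4 10. Etv5 ranked 2 and Etv1 10 in immature dentate granule-like nuclei, 4 and 20 in radial glia-like nuclei, and 8 and 30 in CA3-like nuclei. Etv5 also ranked 8 in Cajal-Retzius-like and 16 in microglia-like nuclei. In dentate granule-like, committed oligodendrocyte precursor-like and oligodendrocyte-like nuclei, Etv4 and Etv5 again met the minimum only in the library labelled knockout. The same held for Etv4 in CA1-like nuclei, Etv5 and Etv1 in immature dentate granule-like nuclei, and Etv5 in Cajal-Retzius-like nuclei. Some ranks were far lower. In oligodendrocyte precursor-like nuclei Etv5 was at 108, Etv4 at 120 and Etv1 at 3700 of 9389. Etv1 was at 1450 in the subicular or cortical excitatory-like class. Etv5 was at 7964 in Adarb2 and 7896 of 8742 in Lhx6 interneuron-like nuclei.

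**Figure D2:**
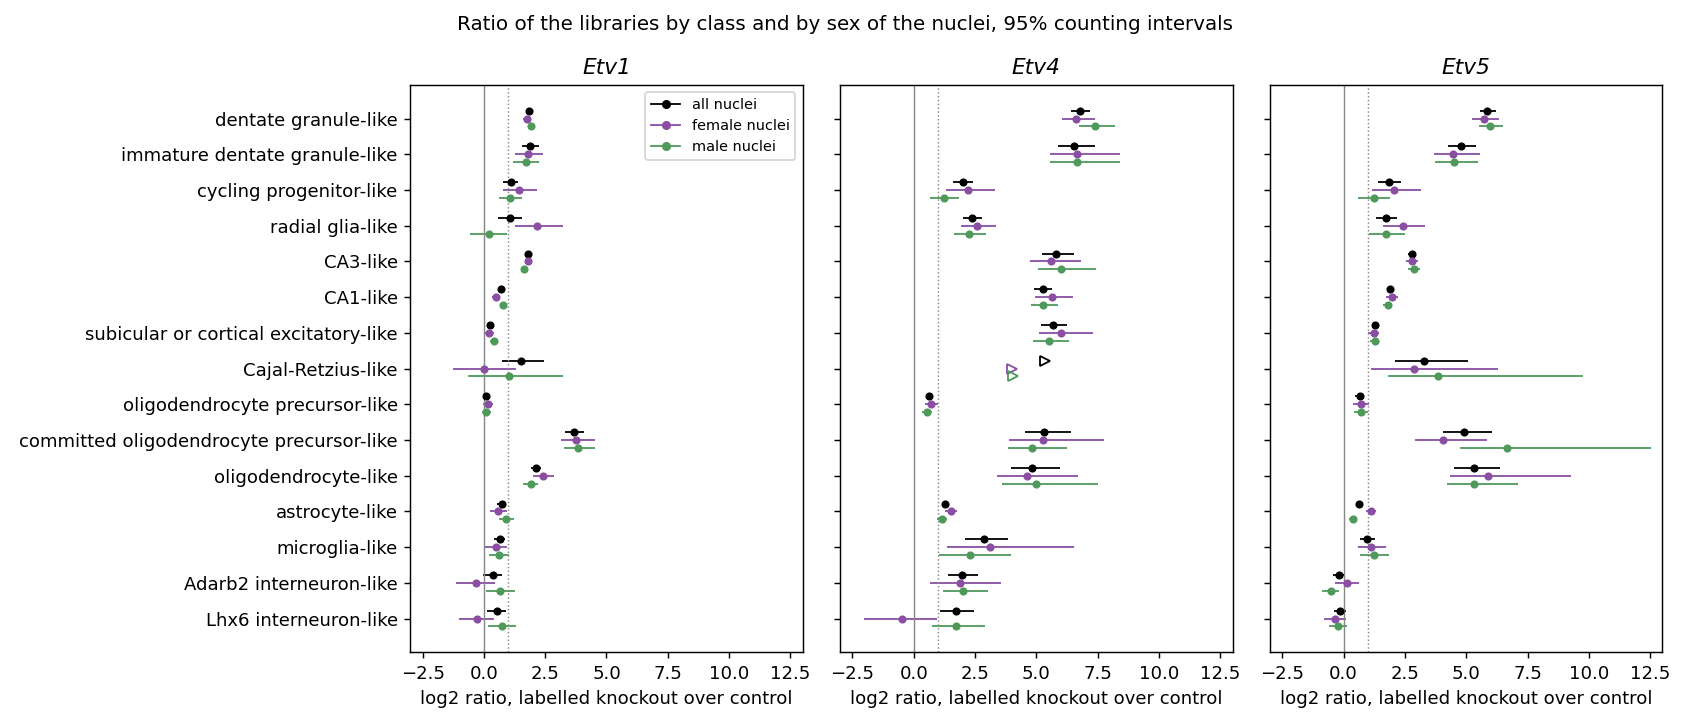
Log2 ratio of the library labelled knockout over the control for each gene and class, over all nuclei (black), female nuclei (purple, 1 mouse per library) and male nuclei (green, 2 mice per library), with 95% counting intervals; the dotted line marks 2-fold and open triangles are lower bounds where the control had 0 UMIs. For Etv4 in dentate granule-like nuclei the female value was 6.62 and the male value 7.37, and for Etv1 in oligodendrocyte precursor-like nuclei all 3 points lay near 0.

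Each pool can be divided by the sex of its nuclei, assigned from Xist and Y-linked transcripts, which gives 1 mouse against 1 and 2 against 2. These are divisions of the same libraries, not replicates. For Etv4 both sexes were at least 2-fold higher in all 13 classes counted above, and for Etv5 in all 10. In dentate granule-like nuclei Etv4 had 20 and 1536 UMIs in female nuclei (log2 ratio 6.62, 6.03 to 7.37) and 17 and 2222 in male nuclei (7.37, 6.73 to 8.20). In CA3-like nuclei the values were 9 and 296 in female (5.59) and 7 and 506 in male nuclei (6.01). For Etv1, 6 of its 8 classes reached 2-fold in both sexes. The exceptions were radial glia-like nuclei, at 2.16 in female and 0.20 in male nuclei, and Cajal-Retzius-like nuclei, where 11 and 13 female UMIs gave −0.01 and 4 and 11 male UMIs gave 1.02. Most of the 61 Cajal-Retzius-like UMIs of the library labelled knockout, beside 16 in the control (1.53 over all nuclei), were in nuclei assigned to no sex. In astrocyte-like nuclei Etv5 was at 1.12 (0.90 to 1.34) in female and 0.38 (0.20 to 0.55) in male nuclei, intervals that did not overlap.

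Along the oligodendrocyte lineage, all 3 genes of the control were high in precursor-like nuclei and lower from the committed stage on. The committed class consisted of a cluster led by Bmp4, Bcas1, Enpp6 and Gpr17, genes of newly committed cells, and a cluster with Tcf7l2 among its leading genes, a factor of the step before myelination. From precursor-like nuclei through the Bmp4 cluster and the Tcf7l2 cluster to oligodendrocyte-like nuclei, Etv4 in the control measured 124, 4.13, 0.758 and 1.17 CPM. Etv5 measured 75.1, 3.21, 1.14 and 1.28 CPM, and Etv1 214, 22.0, 5.68 and 25.4 CPM.

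In the library labelled knockout the first committed cluster lay below the precursor level for Etv4 (136 to 170 CPM against 180 to 204). Its interval overlapped that of precursors for Etv5 and lay above it for Etv1. Etv4 measured 192, 152, 40.2 and 34.4 CPM along the same order, Etv5 119, 101, 29.8 and 52.7 CPM, and Etv1 225, 295, 45.4 and 111 CPM. For the whole committed class the log2 ratios were 5.32 (4.53 to 6.40) for Etv4, 4.89 (4.06 to 6.04) for Etv5 and 3.67 (3.31 to 4.08) for Etv1, the highest Etv1 ratio of the 15 classes. In oligodendrocyte-like nuclei they were 4.82 (3.98 to 5.96), 5.30 (4.51 to 6.38) and 2.12 (1.91 to 2.35). All 3 genes passed the size rule in both of these classes and none did in precursor-like nuclei.

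**Figure D3:**
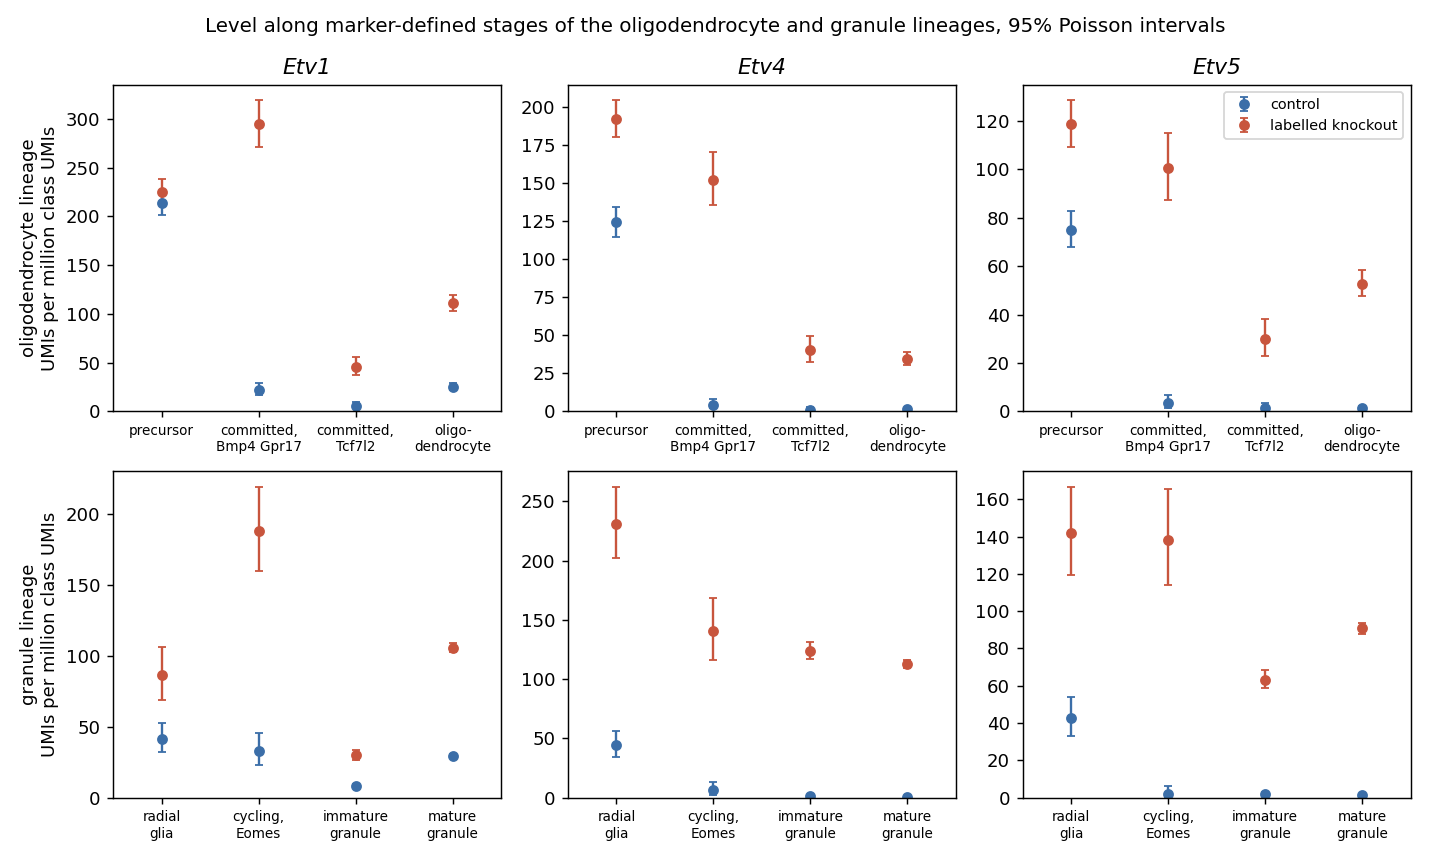
Level in CPM (linear axis from 0) at marker-defined stages of the oligodendrocyte lineage (top) and granule lineage (bottom), control in blue and the library labelled knockout in red, with 95% Poisson intervals. Etv4 in the first committed cluster stood at 4.13 CPM in the control and 152 in the other library, beside 124 and 192 in precursors. The granule series uses the Eomes cluster of the cycling class, not all of whose nuclei need be cycling. The stages are ordered by their known succession and are not a time course.

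In the granule lineage, radial glia-like nuclei express genes of the neural stem cells of the dentate gyrus. The cycling class was made of a cluster with Eomes among its leading genes, a factor of intermediate progenitors of neurons (324 and 299 nuclei), and a cluster led by Top2a, Knl1 and Gm12610 (100 and 110 nuclei). After the cycling markers, the best marker list was that of intermediate progenitors in the first and of oligodendrocyte precursors in the second, so only the first is set in the granule series, a choice made after the values were seen. From radial glia-like over the Eomes cluster and immature to mature granule nuclei, Etv4 in the control measured 44.5, 6.30, 1.31 and 1.02 CPM, and Etv5 42.6, 1.80, 2.29 and 1.55 CPM. In the library labelled knockout the same steps were 231, 140.3, 124 and 112 CPM for Etv4 and 142, 138, 63.4 and 90.8 CPM for Etv5. The Eomes cluster rested on 7 Etv4 and 2 Etv5 UMIs in the control and 118 and 116 in the other library. Etv1 measured 41.4, 33.3, 8.08 and 29.4 CPM in the control and 86.3, 188, 30.2 and 106 CPM in the other library, lowest in immature nuclei in both.

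The Gm12610 cluster was unlike the Eomes cluster. Etv1 measured 162 CPM in the control (107 UMIs) and 152 in the other library (91 UMIs), Etv5 81.7 and 83.5 CPM, and Etv4 87.7 and 155 CPM. The intervals of Etv1 and of Etv5 overlapped between the libraries. The Etv1 log2 ratio of 1.09 (0.79 to 1.40) for the whole cycling class is therefore pooled over a cluster at 33.3 and 188 CPM and one with no difference beyond counting error. At resolution 2 the class was made of a cluster led by Top2a, Knl1 and Gm12610 with 101 and 110 nuclei and a second one with 108 and 119, and the pooled ratio was 0.67. A further cluster of 193 and 163 nuclei, with Eomes as its first leading gene, was named intermediate progenitor at that resolution. The Eomes cluster of the granule series may therefore hold nuclei that were not cycling. The ratio of 1.06 (0.59 to 1.54) in radial glia-like nuclei was 0.91 at resolution 2, below 2-fold.

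Interneurons and microglia serve as classes outside the Emx1 lineage. Etv5 did not differ beyond counting error in Adarb2 interneuron-like nuclei (28.6 and 25.4 CPM, log2 ratio −0.17, −0.42 to 0.07) or in Lhx6 interneuron-like nuclei (28.2 and 25.3 CPM, −0.16, −0.41 to 0.09). Etv1 was at 9.61 and 12.3 CPM in Adarb2 (0.36, −0.03 to 0.75) and 9.23 and 13.3 CPM in Lhx6 interneuron-like nuclei (0.53, 0.14 to 0.92). Etv4 was at 2.73 and 10.9 CPM in Adarb2 (1.98, 1.39 to 2.64) and 2.20 and 7.31 CPM in Lhx6 interneuron-like nuclei (1.72, 1.05 to 2.46), the latter short of 10 CPM. Of the Etv1 UMIs in Lhx6 interneuron-like nuclei, 73.5 of 105 in the control and 103 of 122 in the other library could be free RNA, as described below. The Etv1 log2 ratio in that class ran from −0.41 to 0.74 over the alternatives. The Adarb2 class was not stable to clustering. Without the members and changed genes, the cluster that kept its name had 23 and 8 nuclei, with log2 ratios of 2.80 for Etv1, 1.06 for Etv4 and 0.61 for Etv5, and a cluster of 1167 and 1210 nuclei with markers of both interneuron classes had no name. With doublets kept, Etv1 was at 0.78 and Etv5 at 0.18 in the Adarb2 class.

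Over the whole library Etv4 had 8.15 CPM in the control and 95.6 in the other, summed over nuclei. Free RNA, released from other cells, was not measured here and was taken to have this composition. A limit for it was set in each class and library by whichever other class's markers were lowest there relative to the whole library. It allowed up to 64.8 of the 67 Etv4 UMIs of Lhx6 interneuron-like nuclei in the library labelled knockout, and 83.8 of 108 in Adarb2 interneuron-like nuclei. In the control it allowed 7.48 of 25 and 9.37 of 29. With this limit subtracted, the Adarb2 log2 ratio was 0.39, and Lhx6 interneuron-like nuclei had too few UMIs left for a ratio. For dentate granule-like nuclei the limit was 29.5 of 57 UMIs in the control and 520 of 4583 in the other library, and the ratio after subtraction was 7.64. The 87 control UMIs of Etv5 in dentate granule-like nuclei were below their limit of 102, so its presence there in the control cannot be told apart from free RNA. The same held in immature dentate granule-like nuclei for all 3 genes in the control (99 Etv1 UMIs against a limit of 239, 16 Etv4 against 24.3 and 28 Etv5 against 84.2) and for Etv1 in the other library (313 against 365), but not for Etv4 (1285 against 229.6) or Etv5 (656 against 239) there. It also held for Etv5 in oligodendrocyte-like nuclei of the control (11 against 20.3), and for Etv1 in Adarb2 interneuron-like nuclei of the library labelled knockout (122 against 133).

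Microglia-like nuclei had 317 Etv1 UMIs in the control (94.5 CPM) and 392 in the other library (147 CPM), a log2 ratio of 0.64 (0.42 to 0.86), and Etv5 at 46.8 and 91.7 CPM, 0.97 (0.67 to 1.27). Over the nuclei assigned to a sex, Etv5 passed the size rule in both, at 1.13 in female and 1.26 in male nuclei. The free RNA limits for Etv1 were 50.0 and 67.1 UMIs, and those for Etv5 17.6 of 157 and 43.9 of 244 UMIs. Etv4 had 14 UMIs (4.17 CPM) and 83 UMIs (31.2 CPM), 2.86 (2.07 to 3.83), of which 5.08 and 42.2 could be free RNA; after subtraction the ratio was 2.47. Microglia are not of the Emx1 lineage, and these nuclei were the shallowest of the named classes, with medians of 2147 and 1722 UMIs. With called doublets kept, the Etv4 log2 ratio there was 4.00.

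The granule and CA3 classes were each made of 2 clusters, and each of the 3 genes was higher in the library labelled knockout in all 4. Dentate granule-like nuclei were held by a cluster led by Dsp and Il1r1 and one led by Il27ra and Bmp6, with 3690 and 892 nuclei in the control but 2079 and 1580 in the other library. In the first, Etv4 was at 1.09 and 109.6 CPM and Etv5 at 1.54 and 89.98. In the second, Etv4 was at 0.631 and 117 and Etv5 at 1.58 and 92.2. Etv1 differed between the clusters in both libraries, at 33.0 and 127 CPM in the first and 11.98 and 70.8 in the second. CA3-like nuclei likewise split into a cluster led by Cd109, Scin and Iyd and one led by Vgll3, Col6a1 and Scn7a. The second had more of Etv1 in both libraries (128 and 386 CPM against 35.1 and 126) and more of Etv4 in the library labelled knockout (62.5 against 24.8 CPM), while Etv5 was about level (88.7 against 84.0 CPM). At resolution 2 the libraries lay further apart: the largest CA1-like cluster of the control had 1122 nuclei from it and 23 from the other library, and the largest of the other library had 545 and 1154. For mature granule nuclei the corresponding clusters had 3033 and 190, and 568 and 1779. Resolution 2 also gave a cluster of 153 and 123 nuclei named CA2. No CA2 class was named at resolution 1, so the CA3-like class there may hold CA2 nuclei.

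Of the 6 clusters of 100 or more nuclei that kept no name, Etv4 was higher by the size rule in 5, Etv5 in 4 and Etv1 in 1, and none was lower. The share of all genes higher there ranged from 1.51% (cluster led by C1qtnf7) to 5.2% (cluster led by Rxfp1), with 2.04% (Tnni3k), 2.3% (Fn1), 2.52% (Npsr1) and 3.45% (a shallow cluster) between. The share lower was 0.579%, 1.51%, 0.661%, 0.679%, 1.07% and 7.55% in the same order. The cluster led by Npsr1 had 10 Etv4 UMIs in the control (1.60 CPM) and 1267 in the other library (209 CPM), a log2 ratio of 6.96 (6.14 to 8.09), while its Etv1 was at 6.90 and 9.90 CPM. The cluster led by Tnni3k had Etv1 at 222 and 391 CPM, under 2-fold (0.81, 0.76 to 0.87). CA1 was its best marker list, with 6 of 7 markers raised, but its leading genes included Dcn of the fibroblast list. At resolution 2 a cluster of 576 and 556 nuclei with Tnni3k among its leading genes was named CA1. In the cluster with Fn1 and Teddm3 among its leading genes Etv1 measured 364 and 372 CPM (0.03, −0.02 to 0.09) beside 2.39 and 85.7 CPM of Etv4. Mossy-like nuclei, 76 and 119 in number, had log2 ratios of 1.65 for Etv1, 4.83 for Etv4 and 1.42 for Etv5.

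A higher level of a class can come from a few nuclei or from most of them. An Etv4 UMI was found in 1.20% of control dentate granule-like nuclei and 66.6% of those in the other library, at medians of 11736 and 10677 UMIs. For Etv5 the shares were 1.77% and 60.6%, and for Etv1 22.6% and 54.4%. Lhx6 interneuron-like nuclei, where the free RNA limit covered nearly all Etv4 UMIs of the library labelled knockout, had Etv4 in 3.67% and 9.03% at medians of 18074.5 and 15927.5 UMIs. Microglia-like nuclei had it in 0.938% and 5.49% at 2147 and 1722 UMIs. Of the granule nuclei in the library labelled knockout, 32.4% had 1 Etv4 UMI, 32.0% had 2 to 4, and 2.16% had 5 or more, with a highest count of 11. With nuclei thinned to 2000 UMIs and shallower ones left out (660 and 957 microglia-like, 1 and 4 granule nuclei), the Etv4 shares were 0.153% and 20.4% in dentate granule-like and 0.24% and 4.63% in microglia-like nuclei.

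The shares could go with depth. Of 5 strata of dentate granule-like nuclei in the library labelled knockout, the shallowest (median 6809 UMIs) had 51.8% of nuclei with an Etv4 UMI and the deepest (15939 UMIs) 77.2%. In the control the 5 strata lay between 0.981% and 1.75%, with no order by depth. In CA3-like nuclei of the library labelled knockout Etv5 went with depth, from 58.9% to 90.1%, but Etv4 did not, at 44.0% in the shallowest and 42.7% in the deepest stratum. The Vgll3 cluster with more Etv4 was also the shallower one, with a median of 16186 UMIs against 21785.

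**Figure D4:**
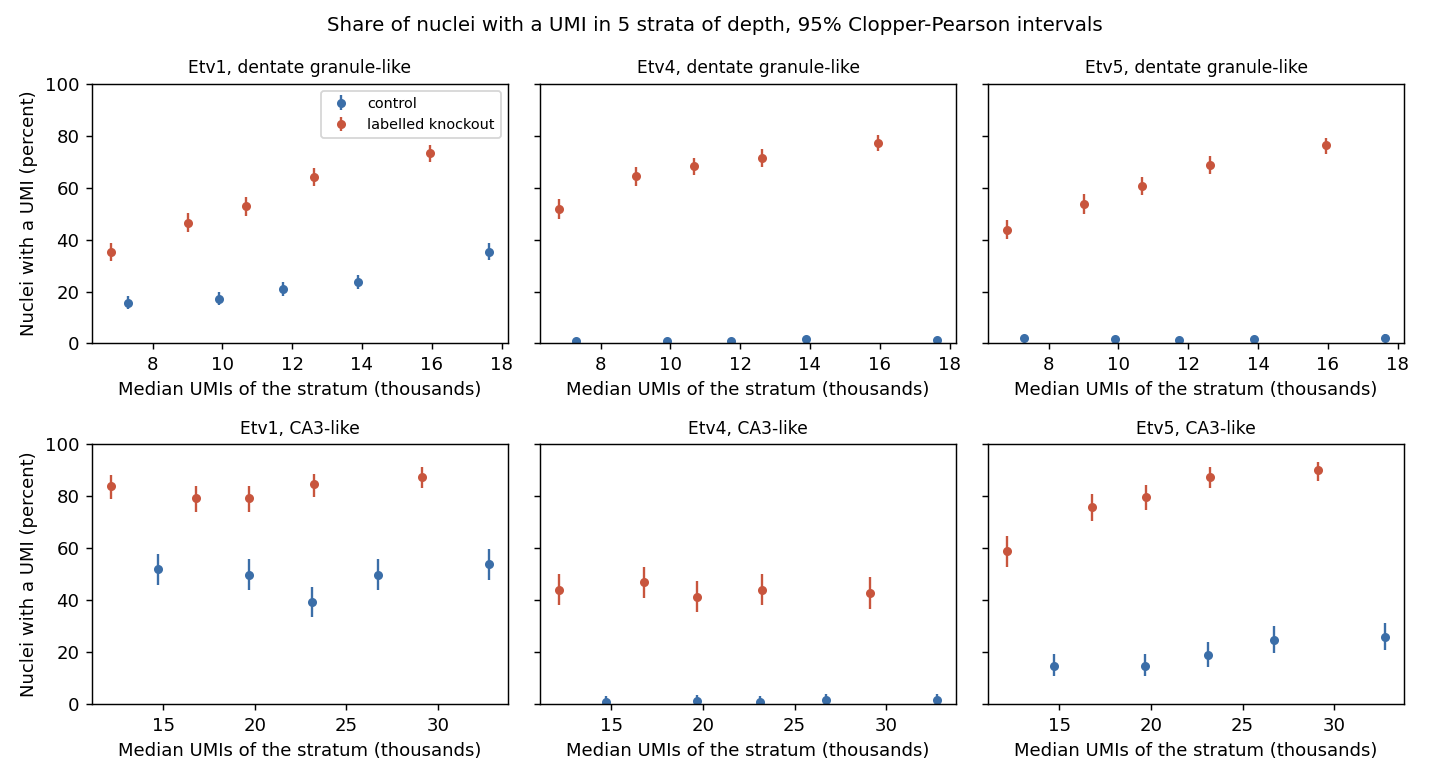
Percent of nuclei with at least 1 UMI of each gene in 5 equal strata of depth (x axis, median UMIs divided by 1000), in dentate granule-like (top) and CA3-like nuclei (bottom), control in blue and the library labelled knockout in red, with 95% Clopper-Pearson intervals. For Etv4 in dentate granule-like nuclei all 5 control strata lay at or under 1.75% and all 5 of the other library at or above 51.8%.

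Co-detection was counted per nucleus. At least 1 of the 3 genes had a UMI in 24.7% of the granule nuclei of the control, mostly Etv1 alone (21.8%), and in 91.3% in the other library. All 3 were found in 0 of 4582 control nuclei and in 25.4% of 3659. The share with all 3 was 0.14% and 29.9% among CA3-like and 0.718% and 37.8% among CA1-like nuclei, and in committed oligodendrocyte precursor-like nuclei 0% of 589 and 11.6% of 577. Oligodendrocyte precursor-like nuclei carried all 3 in 10.4% already in the control and in 14.5% in the other library.

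Detection can go with depth, so pairs were compared within strata of depth by their odds ratio, where 1 means no association. For granule nuclei of the library labelled knockout these were 1.16 for Etv1 with Etv4, 1.19 for Etv1 with Etv5 and 1.20 for Etv4 with Etv5. Of 2436 nuclei with Etv4, 1543 also had Etv5, beside 1510 if the genes were independent within depth. CA1-like nuclei gave 1.02, 0.94 and 1.07. Committed oligodendrocyte precursor-like nuclei stood apart with 2.50, 2.85 and 2.19, in a class made of a cluster high in all 3 and one low in all 3. Oligodendrocyte precursor-like nuclei of the same library gave 0.91, 0.95 and 1.20. These odds ratios describe nuclei of 1 library each.

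**Figure D5:**
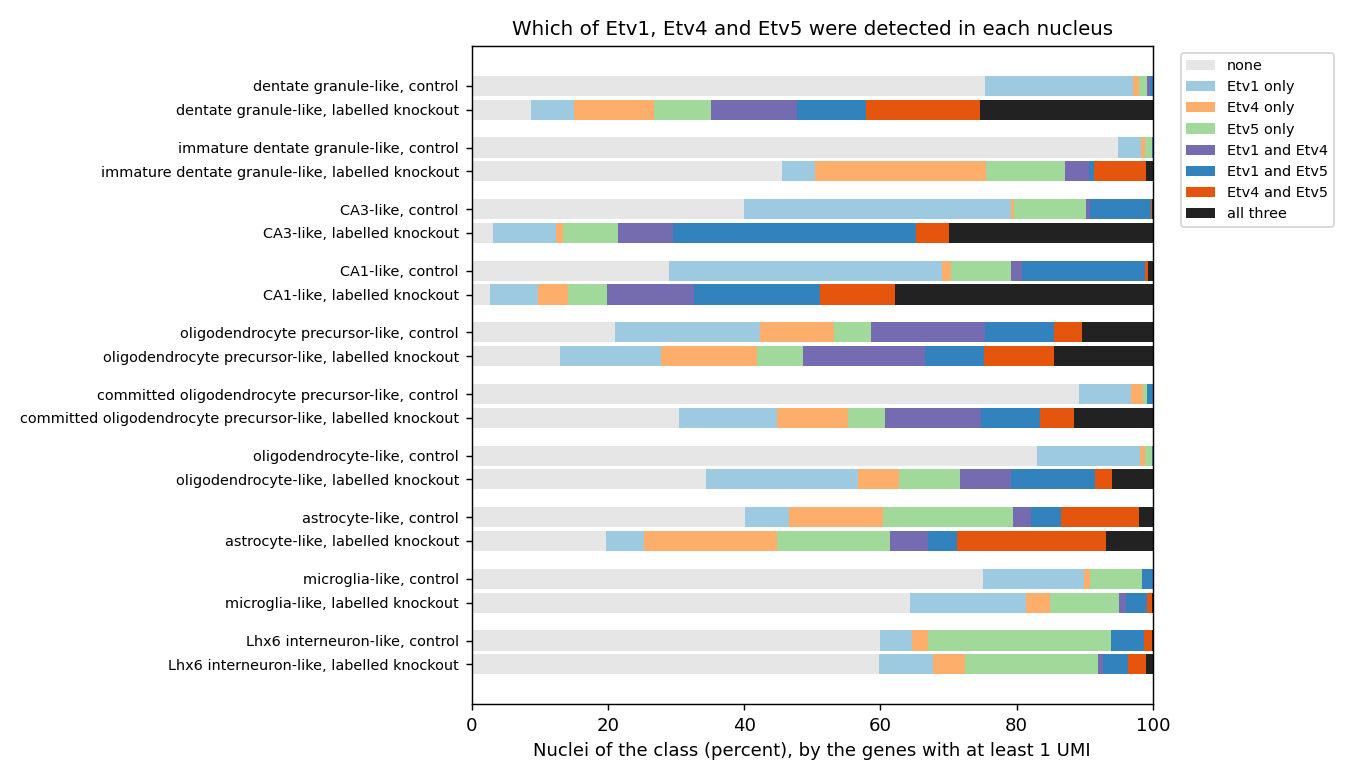
Percent of nuclei in 10 classes by which of the 3 genes had at least 1 UMI, with the control bar above the bar of the library labelled knockout for each class. The black share with all 3 genes was 0% and 25.4% in dentate granule-like and 0.14% and 29.9% in CA3-like nuclei, while in Lhx6 interneuron-like nuclei the grey share with none was 60.0% and 59.7%.

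The other 23 ETS family genes were set beside the 3, with the shares of all genes past the size rule as given above. In 14 of the 15 classes none of them passed the size rule. Between 1 (Cajal-Retzius-like) and 11 (microglia-like) of the 23 were abundant enough to be tested there, so 0 is near the shares of all genes. The exception was Ets1 in committed oligodendrocyte precursor-like nuclei, with 17 and 76 UMIs and a log2 ratio of 2.34, where 9 of the 23 were abundant enough to be tested. Among granule nuclei 7 were testable, and the median log2 ratio of the 13 with at least 20 UMIs was −0.16, beside 0.03 for all genes. Etv6, an ETS repressor, had 1337 and 1002 UMIs there (0.05), and Erf, an ERK-inhibited ETS repressor, 338 and 180 UMIs (−0.44).

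Of 18 feedback inhibitors of ERK signalling and reported Capicua targets, 17 were in the files. In dentate granule-like nuclei 5 of the 11 testable ones were higher, Spred1, Spred3, Shc3, Vgf and Cdh10, and 1 was lower, Spry2, with a median over the list of 1.07. Shc3, a neuronal adaptor of receptor tyrosine kinases, had 1245 and 10546 UMIs (3.54), and Spred3, an inhibitor of Ras activation, 492 and 2267 (2.67). Spry4, a feedback inhibitor of ERK, had 8 and 311 UMIs (5.66) and stayed under 10 CPM. In committed oligodendrocyte precursor-like nuclei 5 of 7 were higher, Spred2, Spred3, Shc3, Vgf and Lrp8, and Shc3 went from 20 to 614 UMIs (5.12). In oligodendrocyte precursor-like nuclei 2 of 14 were, Dusp6 and Vgf, and in both interneuron classes 0 of 9. The share of all genes higher was 2.24% in dentate granule-like, 0.957% in committed precursor-like and 0.192% in precursor-like nuclei. In interneurons it was 0.125% (Adarb2) and 0.0114% (Lhx6), so 0 of 9 is near that share. As for the PEA3 genes, precursors had high control levels of several genes of this list: Shc3 measured 213 and 219 CPM there and Spry4 42.7 and 35.7 CPM. Part of this list was compiled from genes already reported as Capicua targets, so its direction is not independent evidence.

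All 16 regulators of the PEA3 factors on the list were in the files, and the shares of all genes past the size rule are again those given above. Among granule nuclei 0 of 14 testable ones passed the rule, near the shares of all genes there (2.24% higher and 1.04% lower). The COP1 ligase gene Cop1 had 8666 and 4769 UMIs (−0.40) and the Capicua partner Atxn1 41485 and 32868 (0.13). In CA1-like nuclei Atxn1 (1.05) and Fgfr1 (1.07) were higher, in committed oligodendrocyte precursor-like nuclei Fgfr1 (1.01), in Cajal-Retzius-like nuclei Fgfr1 (1.72), and in oligodendrocyte-like nuclei Atxn1 (1.36). None was lower in a named class, again near the shares of all genes lower. Median-of-ratios size factors shifted all log2 ratios by −0.11 in CA1-like and CA3-like nuclei, and by −0.04 in the committed class, which takes the CA1-like values and the committed Fgfr1 value just under 2-fold.

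Over the 30 class sums of both libraries, the genes with the profile most like Etv4 were, by Pearson correlation of log2(CPM + 1), Spry4 (0.81), Spred3 (0.76), Gm10658 (0.75), Ndufb6 and Spred1 (both 0.73), among 13109 genes. For Etv5 they were Spred3 (0.77), Spry4 (0.76), Ptpn9, Vgf and 9630014M24Rik, and for Etv1 Wdr1 (0.70), Sdr42e1, Adora1, Ranbp9 and Rprml. Between the members, Etv4 with Etv5 gave 0.83, Etv1 with Etv5 0.67 and Etv1 with Etv4 0.63. The points share libraries and depth, and the libraries themselves differ in these genes. Over the 15 control sums alone the nearest genes were Slc38a3 (0.95), Prrx1 (0.94), Cbr3, Kcnj16 and AW047730 for Etv4, Mir124-2hg (0.83), Mrps27, B3glct, Rnd3 and Tox2 for Etv5, and Ranbp9 (0.86), Kcnip3, Sdr42e1, Adora1 and Gm15581 for Etv1. The order depended on the measure: with 5 in place of 1 added to the CPM, Spry4 went from rank 2 to 9 for Etv5, by Spearman correlation Ptpn9 was at 33 for Etv5 and Vgf came first, and AW047730 was at 22 and 137 for Etv4 in the control. Sdr42e1, Adora1 and Ranbp9 stood in both Etv1 lists, and no gene stood in both lists of Etv4 or Etv5.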

How the data were processed

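Single-nucleus RNA-seq libraries from pooled P19 mouse hippocampi were used, 1 per genotype. The authors deposited raw UMI counts per gene and nucleus barcode, made with Cell Ranger 8.0.1 on mm39 per the submitters' processing notes; whether intronic reads were counted is not given in the sources used here. From these counts, nuclei with at least 500 genes and at most 5% mitochondrial UMIs were kept, and doublets called with Scrublet (expected rate 0.1, in scanpy 1.11.5) were left out, 12.7% of the control and 10.9% of the other library. Both libraries were clustered together (3000 variable genes, 30 components, 15 neighbours, Leiden resolution 1; leidenalg 0.10.2). Each cluster was compared with the marker list of highest mean log2 fold. It was named where at least 3 markers of that list were raised and detected in 10% of nuclei. No name was given where that mean was under 0.5, or under 1 with no marker of the list among the 10 leading genes. The same held where more leading genes came from another list, or where the cluster lay in 1 library only. Shallow clusters with no marker among the leading genes were also left without a name. These naming limits were set after the clusters had been seen. The member genes and those that differ between libraries took part in the clustering, which was repeated without them.

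UMIs were summed per class and library and scaled to the class total (CPM), with 0.5 UMI added to each sum for log2 ratios. Intervals (95%) are exact Poisson for levels, exact conditional binomial for ratios and Clopper-Pearson for shares (scipy 1.17.1), and cover counting error only. With 1 library per group no test was made. Nuclei were assigned to a sex from at least 2 Xist UMIs or 1 Y-linked UMI. The scripts were tested on simulated data. The genes named are the 3 members, the genes of 3 lists (other ETS genes, ERK feedback and Capicua target genes, regulators), Cic, and the 5 genes most like each member. The members, lists and markers were chosen with earlier results of these data known. Promoter windows come from RefSeq (GRCm38.p6). In GENCODE M21 on GRCm38, 0 annotated genes overlapped any of the 3 members. Alternatives covered doublets, filters, scaling (TMM and median-of-ratios), thinning, sex, free RNA, clustering, the added count and the size rule.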

Additional observations from a re-analysis of the deposited data

Results flagged for a closer look

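In 8 instances, 5 of them in named classes, the female and male nuclei of the pools lay on opposite sides of equal levels. The difference between the sexes was not tested, and both are nuclei of the same 2 libraries. In Adarb2 interneuron-like nuclei Etv1 had a log2 ratio of −0.34 in female nuclei (31 and 27 UMIs) and 0.66 in male nuclei (43 and 68), and Etv5 had 0.15 (67 and 82) and −0.53 (170 and 117). In Lhx6 interneuron-like nuclei Etv1 had −0.28 in female (38 and 32) and 0.74 in male nuclei (47 and 63), and Etv4 −0.47 (11 and 8) and 1.73 (11 and 30). In Cajal-Retzius-like nuclei Etv1 had −0.0068 in female (11 and 13) and 1.02 in male nuclei (4 and 11). All 5 of these female intervals, and the male one in Cajal-Retzius-like nuclei, spanned 0. In clusters without a name, Etv1 had −0.12 (−0.23 to −0.016) in female and 0.052 (−0.03 to 0.13) in male nuclei of the cluster with Fn1 among its leading genes, 0.25 and −0.10 in the one led by Npsr1, and −0.93 (−1.73 to −0.07) and 0.25 in the one led by Rxfp1.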

How the results depend on the processing

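The direction of the Etv1, Etv4 and Etv5 ratios in the CA3-like and granule classes was the same under every alternative that gave a ratio. Each stayed above 2-fold. Their sizes moved in places. Etv4 in CA3-like nuclei (5.82) was 7.20 with free RNA subtracted, 5.05 with doublets kept and 5.02 thinned to 2000 UMIs. Etv4 in dentate granule-like nuclei (6.78) was 7.64 with free RNA subtracted and 7.37 in male nuclei. Etv5 was 2.98 in CA3-like nuclei at resolution 2 (from 2.78), where a CA2 cluster was named apart. It was 5.50 in dentate granule-like nuclei with doublets kept (from 5.86). Etv1 in CA3-like nuclei (1.79) was 1.69 with TMM factors, 1.68 with median-of-ratios size factors, 1.67 thinned and 1.65 in male nuclei, and in dentate granule-like nuclei (1.85) it was 1.75 in female nuclei. For CA3-like nuclei 144 genes were at least 2-fold apart and for the granule class 277, and these counts were 598 and 955 with a minimum of 20 UMIs and no CPM minimum. Etv1 in Cajal-Retzius-like nuclei (1.53) was −0.0068 in female nuclei, 0.79 with free RNA subtracted and 0.65 thinned. Etv1 in cycling progenitor-like nuclei (1.09) was 0.67 at resolution 2, 0.73 clustered without the changed genes and 0.90 with doublets kept; in radial glia-like nuclei (1.06) it was 0.91, 0.80 and 1.22. Those Etv1 values depend on counts of 16 to 249 UMIs; the cause was not tested. Thinning moved 82 shares of nuclei with a UMI, whose size depth sets by construction. No paired analysis was possible because each genotype has 1 library. Subtraction of free RNA gave no ratio where a sum fell to 3 UMIs or fewer. Among others, Etv5 in dentate granule-like nuclei and all 3 genes in immature dentate granule-like nuclei were therefore not covered by it. The subtraction was not run for shares of nuclei. The 3 Lhx6 interneuron ratios had no value when clustered without the changed genes.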
